A study of Mus musculus with 8 samples.

Results

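The regions described here are the DNase I hotspots whose start lay in 1 of 3 windows of 1 Mb on mouse build mm9, chr17:14000001-15000000, chr2:27000001-28000000 and chr14:26000001-27000000. The windows were chosen by the change in hotspots between the libraries of DNCHD4 cells without and with tetracycline, so every DNCHD4 value below is a description. The 8 deposited lists held 1007 hotspots in these windows, of 315620 in all. Merging them where they overlapped by 1 bp or more gave 252 sites, of 99999 in the whole series, with 74 sites in the chromosome 17 window, 93 in the chromosome 2 window and 85 in the chromosome 14 window. As numbers of listed hotspots, the windows did not all become poorer: DNCHD4 cells had 50 hotspots without and 53 with tetracycline in the chromosome 17 window, 72 and 71 in the chromosome 2 window, and 73 and 66 in the chromosome 14 window. What they had in common was that their number stayed nearly level, while the whole lists of DNCHD4 cells had a ratio of 1.597 in length, without over with tetracycline. The text therefore calls them by their chromosome.

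The libraries were DNase-seq of 3134 cells, a mouse mammary epithelial line, and of lines derived from it. In DNCHD4, DNBrg1 and DNSnf2h cells without tetracycline, a dominant-negative form of Chd4, Brg1 or Snf2h was induced by 48 hours without the drug. DNCHD4, DNBrg1 and DNSnf2h cells with tetracycline kept the construct repressed for the same time, and parental cells without and with tetracycline were treated alike. Every group was 1 library, and all 8 groups were grown in charcoal-stripped serum for these 48 hours. Maintenance at 5 μg/ml tetracycline is recorded for all 8 groups. Per the labels, the DNCHD4 construct is a FLAG-tagged mouse Chd4 with a point mutation of a lysine, the DNSnf2h construct is a FLAG-tagged human SNF2H with a mutated lysine, and both were integrated from a retroviral vector into a line that already held the tetracycline transactivator. The labels describe no construct for DNBrg1, do not say whether a line is 1 clone, and do not say whether the parental cells carry the transactivator. With 1 library per group, replicates cannot be set against any difference, and p-values are left out.

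DNase I cuts DNA where it is not wrapped in a stable nucleosome, so hotspots mark promoters, enhancers and other bound regulatory elements. Chd4 is the ATPase of the NuRD complex, which also carries histone deacetylases and is known for limiting the activity of enhancers and promoters. Brg1 is the motor of SWI/SNF complexes, which move and evict nucleosomes, and Snf2h is the ATPase of the ISWI complexes, which space them. A dominant-negative ATPase can enter its complex and lacks full catalytic activity. Neither genes nor DNA sequence are given for the sites, because no annotation or genome of build mm9 was used here.

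Each hotspot carries a peak density, the authors' highest tag density in it, on a scale specific to its library. Densities came in whole steps within a library, and 1 step was taken as 1 tag, or sequenced read. On that reading the median hotspot of a library held 56 to 126 tags, and its counting error was 8.91% to 13.4%. Lists began at different lowest densities, from 5.09 in DNCHD4 cells without tetracycline to 16.4 in DNBrg1 cells with it. A site in both lists of a line has a ratio, the density without over the density with tetracycline, and was called lower or higher at 2-fold. Where 1 list held a site and its partner did not, the partner's lowest listed density stood in, and the ratio is a bound. In DNCHD4 cells such a site counted as lower if its density with tetracycline was 10.2 or more, but as higher only if its density without tetracycline reached 16.1. Density is a mean over many cells, so a site open in fewer cells and a site less open in each cell cannot be told apart. "Centred" ratios have the median of all sites that a line lists in both libraries, genome-wide, set to a log2 of 0. That median was 0.03 in DNCHD4, -0.64 in DNBrg1, -0.02 in DNSnf2h and -0.40 in parental cells.

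**Figure D1:**
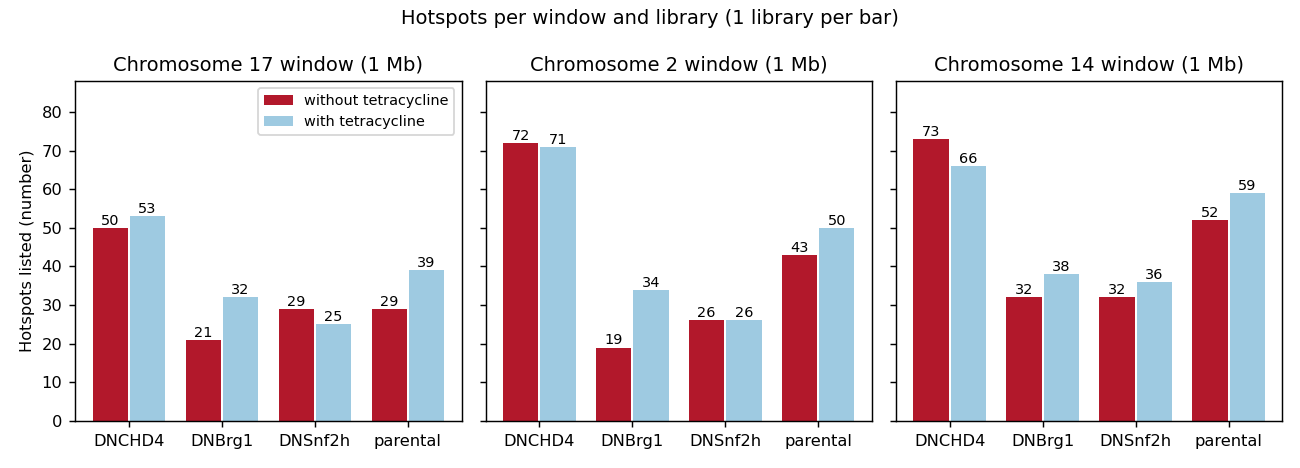
Number of hotspots listed in each window (vertical axis) for the 4 lines, without tetracycline in red and with it in blue, 1 library per bar. Parental and DNBrg1 cells had fewer hotspots without tetracycline in all 3 windows, and DNCHD4 cells had fewer in the chromosome 17 window.

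The other lines were not used to choose the windows, and their numbers moved differently. Parental cells listed fewer hotspots without tetracycline in every window, with 29 and 39 on chromosome 17, 43 and 50 on chromosome 2, and 52 and 59 on chromosome 14, while their whole lists were of equal length (a ratio of 1.00). DNBrg1 cells listed 21 without and 32 with tetracycline on chromosome 17, 19 and 34 on chromosome 2, and 32 and 38 on chromosome 14, with whole lists at a ratio of 1.04. Over the 3 windows the ratio was 0.692 in DNBrg1 and 0.838 in parental cells. The 2 lists of each of these lines began at different densities. From a common density of 13.0 upward, the parental ratio was 0.764 in the windows and 0.828 in the whole lists. By window it was 0.692 on chromosome 17, 0.740 on chromosome 2 and 0.831 on chromosome 14, the last level with the whole lists. From 16.4 upward, the DNBrg1 ratio was 0.337 in the windows and 0.643 in the whole lists. DNSnf2h cells had 29 and 25, 26 and 26, and 32 and 36 in the same order of windows, a ratio of 1.00 against 1.36 for their whole lists. In DNCHD4 cells the ratio was 1.03 over the windows. At a common lowest density of 8.05 in that line, the chromosome 17 window held 45 hotspots without and 53 with tetracycline, against 58759 and 48888 in the whole lists.

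The neighbouring megabases had higher DNCHD4 ratios than the windows themselves, but the windows were chosen on this contrast, so nothing is read from the difference. The DNCHD4 ratio was 0.943 inside the chromosome 17 window, against 1.20 in the megabase before and 1.34 in the one after it. It was 1.01 inside the chromosome 2 window, against 1.24 before and 1.42 after it, and 1.11 inside the chromosome 14 window, against 1.71 before and 1.52 after it. The neighbours also held fewer DNCHD4 hotspots with tetracycline. They had 35 and 29 against 53 on chromosome 17, and 63 and 38 against 71 on chromosome 2. On chromosome 14 they had 21 and 21 against 66. Within the chromosome 14 window no site started more than 691.8 kb from its start, and the chromosome 2 window held 37 of its 93 sites between 600 and 800 kb.

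Sites held by only 1 DNCHD4 library were split differently from those of the whole series. Of the 233 sites that DNCHD4 cells listed, 146 were in both libraries, 48 without tetracycline only and 39 with tetracycline only. Sites listed with tetracycline only made up 16.7% in the windows, against 8.62% of all DNCHD4 sites, and those listed without it only made up 20.6%, against 43.0%. These shares use the contrast by which the windows were chosen. A single library listed 78 of the 252 sites, 43 of them in DNCHD4 cells without and 17 in DNCHD4 cells with tetracycline, and this share of 31.0% was below the 51.4% of the whole series. All 8 libraries listed 30 sites, or 11.9%, beside 12.6% in the whole series. The median site was 658.5 bp wide.

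At least 2-fold lower density without tetracycline was found at 66 of the 233 DNCHD4 sites (28.3%), beside 9.66% of DNCHD4 sites genome-wide, and at least 2-fold higher density at 18 (7.73%), beside 7.75%. Since the windows were chosen on this contrast, nothing is read from the first share. Centring gave 67 lower sites, beside 10.2% genome-wide, and 18 higher sites, beside 7.22%. Of the 66 lower sites, 30 were listed in both libraries and 36 rested on a bound. In 0 of the 36 was a hotspot number missing at the position in the list without tetracycline. Of these 36 sites, 8 were also 2-fold lower against the lowest density that the list without tetracycline held within 50 kb, with 4 on chromosome 17 and 2 in each of the other windows.

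**Figure D2:**
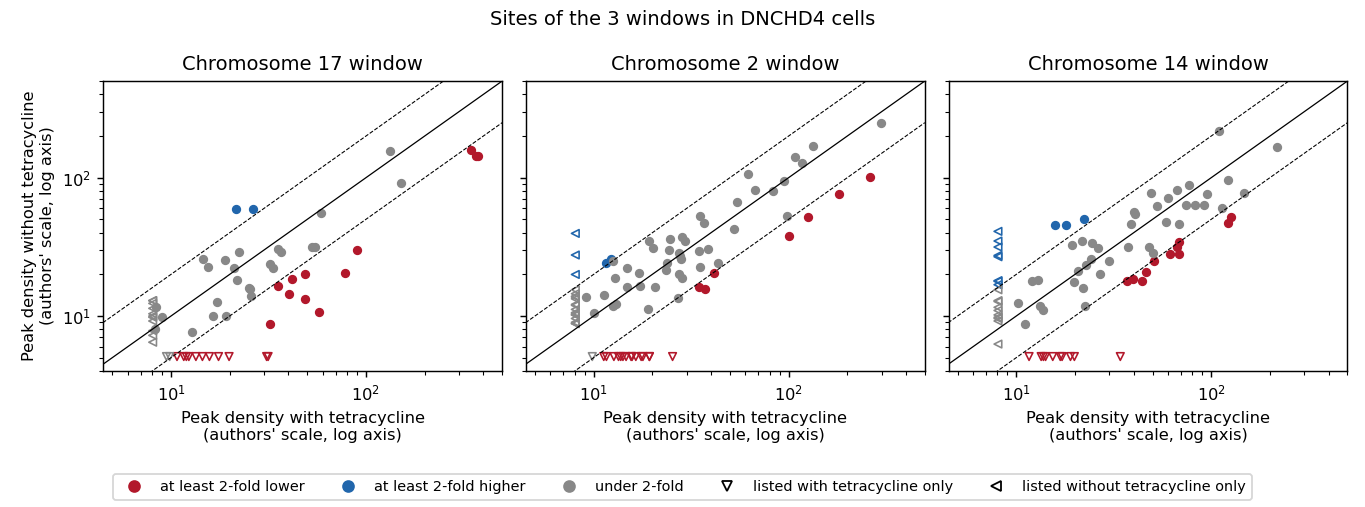
Peak density of each site in DNCHD4 cells, without (vertical axis) against with tetracycline (horizontal axis), both on log axes. Filled points were listed in both libraries, open triangles in 1 library and drawn at the lowest density of the other list. The solid line marks equal density and the dashed lines 2-fold. The strongest sites of the chromosome 17 window lie under the lower dashed line, and the strongest site of the chromosome 2 window near the line of equal density.

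The windows differed in how far density was lower without tetracycline. In the chromosome 17 window the median log2 ratio of the 39 sites listed in both DNCHD4 libraries was -0.70, and 29 of the 39 were below 0. The counting interval (exact binomial, 95%) lay wholly below a ratio of 1 at 24 sites, wholly above it at 7 and held 1 at 8. These intervals cover counting error alone, and no genome-wide share is given for them in any window. In the chromosome 14 window the median was -0.27 over 54 sites, with 26 intervals below, 16 above and 12 holding 1. In the chromosome 2 window the median was -0.01 over 53 sites, with 17 intervals below, 17 above and 19 holding 1, so at sites in both lists this window was balanced. There, 15 of the 22 lower calls rested on a bound, against 11 of 23 on chromosome 17 and 10 of 21 on chromosome 14.

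By density with tetracycline, lower calls on chromosome 17 included most of the strong sites. From a density of 80 upward, 4 of 6 sites there were lower in DNCHD4 cells, and between 40 and 80 it was 6 of 9. The corresponding counts were 4 of 11 and 1 of 6 on chromosome 2, and 2 of 10 and 7 of 19 on chromosome 14. Over all DNCHD4 sites of the genome, 8.73% of those from 80 upward and 14.5% of those between 40 and 80 were lower. Under a density of 20, 32 of 70 sites of the 3 windows were lower, beside 20.6% genome-wide. All 32 were listed with tetracycline only, so these calls rested on a bound. The 35 of the 70 sites that were in both lists had a median log2 ratio of 0.27, beside 0.22 genome-wide.

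The strongest sites of the chromosome 17 window were open in all 8 libraries and had less density without tetracycline in each line. At chr17:14322856-14323840 the density was 142 without and 376 with tetracycline in DNCHD4 cells, 21.9 and 225 in DNBrg1 cells, 59.3 and 117 in DNSnf2h cells, and 112.5 and 213 in parental cells. The ratio was 0.379 (0.348 to 0.413) in DNCHD4, 0.0975 (0.0763 to 0.124) in DNBrg1, 0.508 (0.440 to 0.584) in DNSnf2h and 0.528 (0.467 to 0.596) in parental cells. Among the 5 sites of this window in all 8 libraries, this one had the smallest DNBrg1 ratio. At chr17:14747516-14748658 the density was 144 and 368 in DNCHD4 cells, 62.8 and 250.2 in DNBrg1 cells, 73.0 and 146 in DNSnf2h cells, and 143 and 328 in parental cells. As deposited, the DNCHD4 ratio of 0.390 (0.358 to 0.425) and the parental ratio of 0.437 (0.394 to 0.485) had overlapping intervals here. The lines lay further apart after centring, at a log2 ratio of -1.39 in DNCHD4 and -0.79 in parental cells. At chr17:14682571-14683762 the density was 159.6 and 348 in DNCHD4, 80.9 and 227 in DNBrg1, 50.6 and 109.6 in DNSnf2h, and 139 and 250.2 in parental cells, so the library without tetracycline was the lower one in each line.

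A weaker neighbour of the second of these sites, chr17:14745616-14746452, had 30.0 without and 90.0 with tetracycline in DNCHD4 cells, a ratio of 0.333 (0.276 to 0.3998). DNSnf2h cells had 18.9 and 36.6 there, and parental cells 26.5 and 56.1. DNBrg1 cells listed it with tetracycline only, at 38.7, which makes it at least 4.21-fold lower without, measured against the lowest density of that list. The 1 hotspot of that list within 50 kb had a density of 62.8, above 38.7, so no local bound can be given. In the 3 lines that listed it in both libraries, the value without tetracycline was the lower one.

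Within the chromosome 17 window the lower DNCHD4 sites were unevenly placed. None of the 10 DNCHD4 sites in the first 200 kb was 2-fold lower, against 4 of 18 between 200 and 400 kb. The counts were 8 of 12 between 400 and 600 kb and 6 of 11 between 600 and 800 kb. The last 200 kb had 5 of 12, and the genome-wide share was 9.66%. Of the 23 lower calls, 11 rested on a bound, and 4 of these also held against the lowest density within 50 kb. At sites in both DNCHD4 lists the median log2 ratio was -0.07, -0.45, -1.58, -1.12 and -0.58 in the same order, with 6, 14, 4, 7 and 8 sites. The only 2 higher sites lay between 200 and 600 kb. In parental cells the median log2 ratio was -0.03 in the first stretch (2 sites in both lists) and -0.77, -0.93, -1.06 and -0.62 in the next ones, with 12, 3, 7 and 4 sites.

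**Figure D3:**
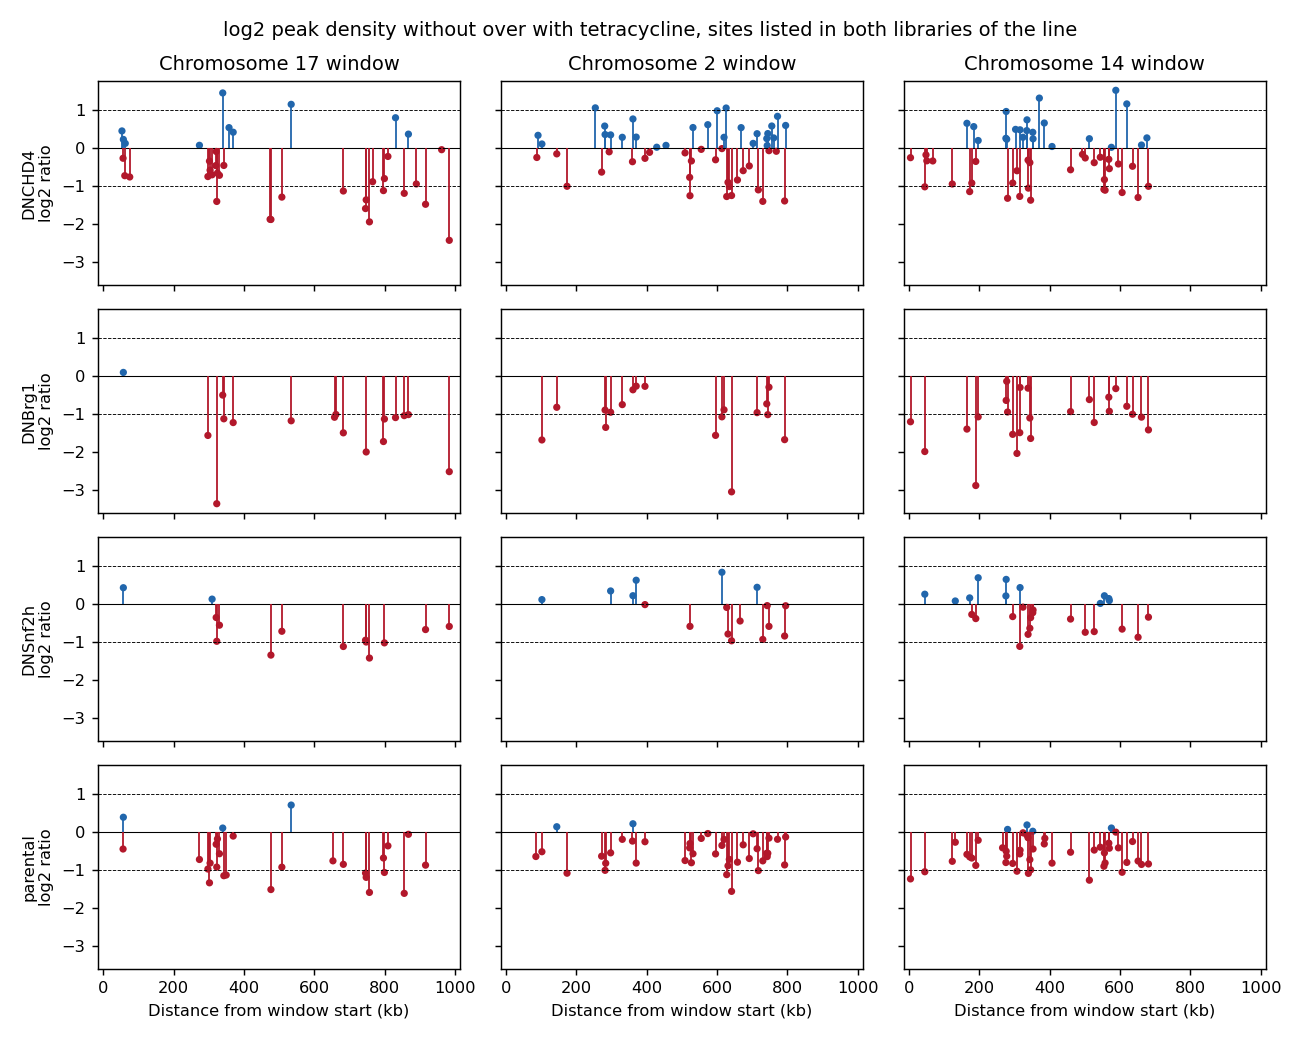
log2 ratio of peak density without over with tetracycline (vertical axis) of every site listed in both libraries of its line, against the distance from the window start in kb. Rows are the 4 lines, columns the windows, and dashed lines mark 2-fold. Values below 0 prevail on chromosome 17 beyond its first 200 kb, whereas DNCHD4 cells have higher and lower sites side by side in the other windows. In DNBrg1 and parental cells values below 0 prevail in those windows too. They make up 100% of DNBrg1 sites in each, and 95.1% (chromosome 2) and 91.7% (chromosome 14) of parental sites. Genome-wide the shares are 89.3% in DNBrg1 and 83.2% in parental cells.

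Parental and DNBrg1 cells also had lower median ratios, without over with tetracycline, in these windows than genome-wide, and these values were not used by the rule. As deposited, 26 of 146 parental sites were at least 2-fold lower (17.8%), beside 9.71% genome-wide, and 0 were higher, beside 0.666%. After centring, 6 were lower, beside 2.30% genome-wide, and 1 higher, beside 2.59%. Of the 6, 4 lay on chromosome 17, 2 on chromosome 2 and 0 on chromosome 14. The parental median log2 ratio as deposited was -0.83 on chromosome 17 (28 sites), -0.56 on chromosome 2 (41 sites) and -0.56 on chromosome 14 (48 sites), beside -0.40 genome-wide.

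In DNBrg1 cells, 69 of 109 sites were lower as deposited (63.3%), beside 29.6% genome-wide, and 0 were higher, beside 0.260%. With the line's median removed, 27 were lower, beside 8.89% genome-wide, and 0 higher, beside 2.87%. A bound underlay 33 of the 69 lower calls and 17 of the 27 centred ones. As deposited, a site listed with tetracycline only counted as lower from a density of 18.4. One listed without it only counted as higher from 32.8, so lower calls were easier to reach. The excess over the genome-wide share was present in each window after centring, with 11 of 36 sites on chromosome 17, 7 of 34 on chromosome 2 and 9 of 39 on chromosome 14. DNBrg1 cells had less density than parental cells with tetracycline in the chromosome 2 and 14 windows, at a median log2 ratio of -0.68 (32 sites) and -0.41 (35 sites) against -0.02 genome-wide, whereas on chromosome 17 it was 0.21 (29 sites).

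DNSnf2h cells had few called sites, and nearly all lay on chromosome 17. As deposited 8 of 110 sites were lower (7.27%), beside 4.68% genome-wide, and 2 were higher (1.82%), beside 1.93%. The centred counts were also 8 and 2, beside 4.47% and 2.07%. Chromosome 17 held 7 of the 8 lower sites, chromosome 14 had 1 and chromosome 2 had 0. The median log2 ratio in this line was -0.83 on chromosome 17 (14 sites), -0.04 on chromosome 2 (17 sites) and -0.23 on chromosome 14 (27 sites), beside -0.02 genome-wide. Relative to parental cells in the same state, DNSnf2h density on chromosome 17 was higher than over the genome, at a median log2 ratio of -0.64 without (18 sites) and -0.73 with tetracycline (21 sites), against -1.40 and -1.51 genome-wide.

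As deposited, 3 sites were at least 2-fold lower in all 4 lines, all in the chromosome 17 window. No genome-wide share is given for such sites, so how common they are elsewhere is not known here. At chr17:14476776-14477612, DNCHD4 cells had 13.3 without and 48.8 with tetracycline, DNSnf2h cells 10.7 and 27.1, and parental cells 13.1 and 37.5, while DNBrg1 cells listed it with tetracycline only, at 34.0. At chr17:14756744-14757650 DNCHD4 cells had 20.4 and 78.0, DNSnf2h cells 16.1 and 43.1, and parental cells 13.4 and 40.3, with 55.1 in DNBrg1 cells with tetracycline and no hotspot without it. Both sites stayed at least 2-fold lower in all 4 lines after centring. The third, chr17:14855631-14856318, had 18.4 and 41.9 in DNCHD4, 16.8 and 34.6 in DNBrg1, no hotspot and 22.8 in DNSnf2h, and 11.8 and 36.3 in parental cells, and after centring it was under 2-fold in DNBrg1 cells. Its DNSnf2h call rests on the lowest density of the whole list. Within 50 kb, the DNSnf2h list without tetracycline held 1 hotspot, at 17.3, against which the site was under 2-fold lower. These 3 sites were singled out after their values were seen.

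Of the 66 sites lower in DNCHD4 cells, 38 were lower in no other line as deposited (57.6%, beside 62.7% in the whole series), and 48 of 67 in none after centring (71.6%, beside 78.4%). They shared 26 lower sites with DNBrg1 cells, which is 39.4% of the DNCHD4 and 37.7% of the DNBrg1 lower sites, beside 25.6% and 20.03% in the whole series. After centring they shared 15 with DNBrg1 cells, or 22.4% and 55.6%, beside 10.9% and 29.9%. With parental cells they shared 13, or 19.7% of the DNCHD4 and 50% of the parental ones, beside 19.98% and 42.8%. Centring left 5 shared with parental cells, or 7.46% and 83.3%, beside 6.61% and 62.8%. With DNSnf2h cells they shared 6 on both scales, as deposited 9.09% of the DNCHD4 and 75% of the DNSnf2h ones, beside 12.1% and 51.8%. The DNCHD4 lower sites were not listed at all in DNBrg1 cells in 35 cases, in DNSnf2h cells in 30 and in parental cells in 22, so many could not be compared. No library is shared between these lines.

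How far DNCHD4 cells went beyond the parental change depended on the scaling. At the 26 sites of chromosome 17 listed in both libraries of both lines, the median log2 ratio was -0.68 in DNCHD4 and -0.83 in parental cells as deposited, and -0.71 and -0.43 after centring. The DNCHD4 ratio was below the parental one at 12 of these 26 sites as deposited and at 20 after centring. On chromosome 14 the medians were -0.35 and -0.59 as deposited and -0.38 and -0.18 centred (45 sites), and on chromosome 2 they were -0.12 and -0.56 as deposited and -0.15 and -0.15 centred (39 sites). Across the 110 such sites of the 3 windows, Spearman's rho between the ratios of the lines was 0.60, given as a description because sites share libraries and depth.

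Among the 30 sites listed in all 8 libraries, the median log2 ratio as deposited was -0.36 in DNCHD4, -1.08 in DNBrg1, -0.34 in DNSnf2h and -0.54 in parental cells. On chromosome 17, 4 of 5 such sites had a ratio below 1 in all 4 lines. So did 4 of 10 on chromosome 2 and 9 of 15 on chromosome 14. Genome-wide, 89.3% of DNBrg1 and 83.2% of parental sites in both lists of the line were below 1 as deposited. The share was 47.6% in DNCHD4 and 51.3% in DNSnf2h cells. No genome-wide count was made for sites in all 8 libraries. After centring, which takes out the shift of each line, the medians were -0.39 in DNCHD4, -0.44 in DNBrg1, -0.32 in DNSnf2h and -0.14 in parental cells, and the counts were 4 of 5, 2 of 10 and 8 of 15. The exception on chromosome 17, chr17:14057434-14058579, lay in its first 200 kb and had 157 without and 133 with tetracycline in DNCHD4 cells, 76.0 and 70.9 in DNBrg1, 64.3 and 47.6 in DNSnf2h, and 158 and 121 in parental cells. The site is named because it is the exception, after its values were seen.

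In the chromosome 2 window the strongest site changed little, and the lower sites named here lay more than 200 kb from it. At chr2:27395042-27396284 the density was 249 without and 298 with tetracycline in DNCHD4 cells, 175 and 210.3 in DNBrg1, 61.7 and 62.2 in DNSnf2h, and 249 and 297 in parental cells. As deposited, the ratio was 0.833 (0.774 to 0.897) in DNCHD4 and 0.838 (0.766 to 0.917) in parental cells. The centred log2 ratio was -0.30 in DNCHD4 and 0.15 in parental cells. At chr2:27791862-27792862 the values were 100.5 and 263 in DNCHD4, 25.8 and 82.0 in DNBrg1, 35.1 and 62.7 in DNSnf2h, and 104 and 190.04 in parental cells, and the library without tetracycline was the lower one in each line. At chr2:27641096-27642065 they were 76.8 and 182 in DNCHD4, 11.99 and 99.0 in DNBrg1, 22.6 and 44.1 in DNSnf2h, and 72.9 and 215 in parental cells. As deposited, parental cells had the smaller ratio at this last site, 0.339 (0.294 to 0.389) against 0.422 (0.375 to 0.475) in DNCHD4. After centring the order was reversed, with a log2 ratio of -1.16 in parental and -1.28 in DNCHD4 cells.

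Another 2 lower sites of that window were missing from DNBrg1 cells without tetracycline. At chr2:27627274-27628111 DNCHD4 cells had 52.1 and 126, DNSnf2h cells 22.2 and 23.5, and parental cells 54.6 and 119, and DNBrg1 cells had 34.0 with tetracycline. At chr2:27729841-27730698 DNCHD4 cells had 38.2 and 101, DNSnf2h cells 18.3 and 34.9, and parental cells 46.3 and 78.4, and DNBrg1 cells had 35.7 with tetracycline. The first of them showed almost no change in DNSnf2h cells, at a ratio of 0.942 (0.723 to 1.23).

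The chromosome 14 window held both lower sites and a strong site with the opposite change. At chr14:26276786-26278069 the density was 216 without and 110.2 with tetracycline in DNCHD4 cells, a ratio of 1.96 (1.77 to 2.17), just under 2-fold. In DNSnf2h cells it was 19.95 and 12.7, a ratio of 1.57 (1.14 to 2.17). DNBrg1 cells had 56.9 and 88.5 and parental cells 78.3 and 111, so both of these had the lower value without tetracycline. The strongest site by density, chr14:26526986-26528790, had 167 and 216 in DNCHD4, 38.5 and 89.6 in DNBrg1, 36.9 and 60.9 in DNSnf2h, and 119 and 165 in parental cells. At chr14:26315399-26316226 the values were 52.3 and 126 in DNCHD4, 15.1 and 42.2 in DNBrg1, 15.1 and 32.7 in DNSnf2h, and 61.8 and 92.1 in parental cells.

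The other lower sites named for this window were similar in size. At chr14:26346249-26347381 the density was 47.4 and 122 in DNCHD4, 18.6 and 58.0 in DNBrg1, 22.8 and 29.1 in DNSnf2h, and 52.3 and 104 in parental cells. At chr14:26651591-26652395 DNCHD4 cells had 28.0 and 68.7, DNSnf2h cells 15.7 and 28.8, and parental cells 29.6 and 50.2, and DNBrg1 cells listed it with tetracycline only, at 60.9. The site just inside the 2-fold limit, chr14:26681075-26681920, had 34.1 and 68.2 in DNCHD4 cells, and the site just outside it, chr2:27173561-27174721, had 13.51 and 27.01. Their ratios were 0.4999 and 0.5002.

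Sites at least 2-fold higher in DNCHD4 cells numbered 2 on chromosome 17, 5 on chromosome 2 and 11 on chromosome 14. Of the 18, 10 were listed in no other line, as were 52 of 149 sites under 2-fold and 15 of 66 lower sites. In the whole series, 31957 of 99999 sites were listed only in DNCHD4 cells without tetracycline. That is a different measure, and no genome-wide share was computed for higher, lower or under 2-fold sites listed in no other line. The list of DNCHD4 cells without tetracycline was also the longest, with 78093 hotspots. On chromosome 17, chr17:14339839-14341624 had 59.5 without and 21.6 with tetracycline in DNCHD4 cells, a ratio of 2.75 (2.22 to 3.42), against 21.2 and 29.9 in DNBrg1 and 23.7 and 22.0 in parental cells. DNSnf2h cells did not list it. The second, chr17:14534344-14535044, had 59.1 and 26.5 in DNCHD4 cells, 14.3 and 32.2 in DNBrg1, and 35.5 and 21.7 in parental cells, and 12.1 in DNSnf2h cells without tetracycline only. Its parental ratio was 1.64 (1.22 to 2.22), so the higher value without tetracycline also occurred in the line with no dominant-negative protein.

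On chromosome 2, the 3 higher sites with the largest ratios, bounds included, were listed in DNCHD4 cells without tetracycline and in no other library. They were chr2:27184018-27184688 at 39.6, chr2:27628200-27628781 at 27.6 and chr2:27182372-27183176 at 19.98, bounds of 4.91, 3.43 and 2.48. The sites from 27184018 and 27182372 are neighbours, and the one from 27628200 lies next to the lower site chr2:27627274-27628111. On chromosome 14, chr14:26320033-26320787 at 40.9 and chr14:26196431-26197072 at 31.5 were again listed in DNCHD4 cells without tetracycline only, with bounds of 5.08 and 3.92. Between them by its bound of 4.33, chr14:26386641-26387225, had 34.9 in DNCHD4 cells without tetracycline, 10.97 in DNBrg1 cells without it, and 14.9 and 16.7 in parental cells. The lowest density that the DNCHD4 list with tetracycline held within 50 kb was 11.6 to 13.4 around these 6 sites, above the 8.05 used for the bounds. Against its local value of 12.7, chr2:27182372-27183176 at 19.98 was under 2-fold higher.

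Against other 1 Mb windows with the same number of hotspots in the DNCHD4 list with tetracycline, the chromosome 17 window had the lowest median log2 ratio in each line. Without tetracycline it held 50 DNCHD4 hotspots, against 53 to 72 (median 65) in the 12 other windows that had 53 with tetracycline. In number of hotspots without tetracycline it was not lowest everywhere, since 7 of the 12 had fewer than its 29 in DNSnf2h cells and 1 had fewer than its 21 in DNBrg1 cells. Its median log2 ratio in DNCHD4 cells was -0.70, against -0.28 to 0.25 in the others. In the lines not used to choose the window, it was -1.13 against -0.96 to -0.48 in DNBrg1, -0.83 against -0.26 to 0.31 in DNSnf2h, and -0.83 against -0.69 to -0.32 in parental cells. Thus 0 of the 12 had a lower median in any line. Among the 134 other windows within 10% of its number, 0 had a lower median in DNCHD4, DNSnf2h and parental cells and 2 in DNBrg1 cells.

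The chromosome 2 window shared its 71 hotspots with 4 other windows. Its DNCHD4 number without tetracycline was 72, against 75 to 79 in the others, and its median log2 ratio was -0.01, against 0.03 to 0.23. In DNBrg1 cells the median was -0.92 against -0.77 to -0.53 in the others, and in parental cells -0.56 against -0.53 to -0.41, while in DNSnf2h cells 1 of the 4 lay below the window's -0.04. The chromosome 14 window, with 66 hotspots like 6 other windows, had 73 DNCHD4 hotspots without tetracycline, against 67 to 85 in the others. Here 2 of the 6 had fewer than the window, although its median log2 ratio of -0.27 was below their range of -0.19 to 0.21. Its medians were -1.07 against -0.78 to -0.36 in DNBrg1, -0.23 against -0.19 to 0.22 in DNSnf2h, and -0.56 against -0.51 to -0.18 in parental cells. Among the 56 windows within 10% of the chromosome 2 number 14 had a lower DNCHD4 median, and among the 70 within 10% of the chromosome 14 number it was 3.

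A ratio of hotspot numbers below that of the whole lists was common to the windows of equal number. The ratio of DNCHD4 hotspots without over with tetracycline was 1.00 to 1.36 (median 1.23) in the 12 other windows of the chromosome 17 comparison, 1.06 to 1.11 (median 1.07) in the 4 of chromosome 2 and 1.02 to 1.29 (median 1.13) in the 6 of chromosome 14. All of these were below the 1.597 of the whole lists. With so few windows of equal number, these are positions within small sets, and no test was made.

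**Figure D4:**
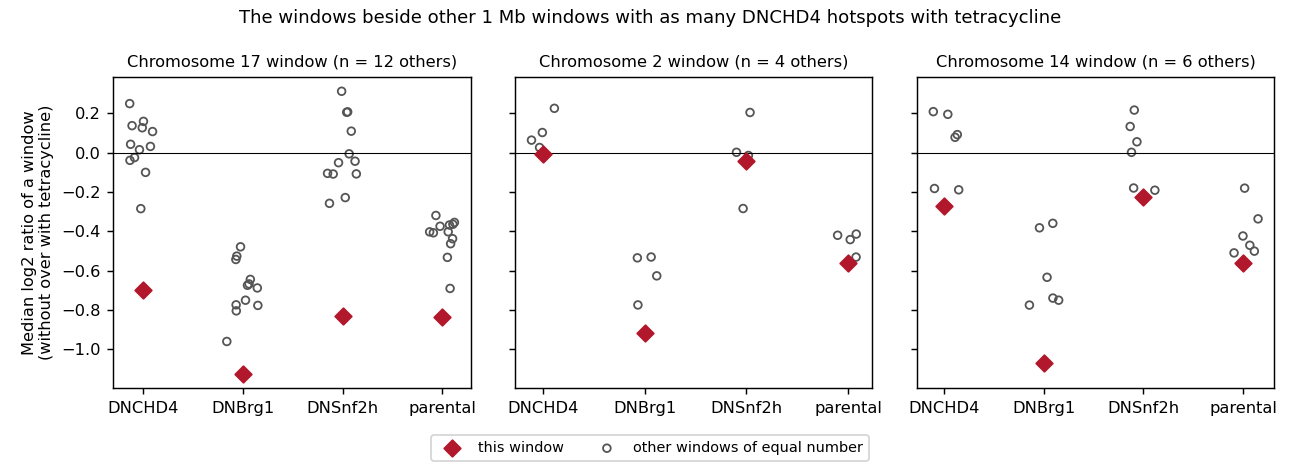
Median log2 ratio without over with tetracycline (vertical axis) of each window in the 4 lines (red diamonds), beside the other 1 Mb windows that hold as many DNCHD4 hotspots with tetracycline (open circles, 12, 4 and 6 windows, spread sideways at random). The chromosome 17 window lies below all 12 others in each line, and the chromosome 2 window lies near the others in DNSnf2h cells.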

How the data were processed

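DNase-seq was done on 8 libraries of 3134 cells and 3 derived lines, 1 library per group, grouped by the submitters' labels. Digestion used 60 to 80 U/ml DNase I for 3 min and fragments of 100 to 500 bp, per the labels' protocols. CASAVA 1.6 and build mm9 are named in the submitters' processing notes. A hotspot caller was not given in the sources used here. For each hotspot the authors deposited, per the file headers, a highest and a mean tag density (signal, scaled per library), a z-score (score) and a p-value, and the last 2 were not used. Total depth is unknown. Within a library 100% of peak densities were whole multiples of 1 step (0.05 tags tolerance), which gave tags.

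Hotspots were merged over the 8 lists at 1 bp overlap, and the site value is the highest peak density. Calls were made at 2-fold over all sites genome-wide. Intervals are exact binomial intervals on tags at 95%; reads carry no molecular identifiers, so the intervals reflect counting error alone. Members and site rules were chosen with earlier results of these data known. Named sites were, per window, the 4 strongest lower and up to 3 highest-ratio higher sites in DNCHD4, the 2 strongest listed in all 8 libraries, and the sites on either side of the 2-fold limit. Merging and calling were tested on simulated data. Work was done in Python 3.11.15 with scipy 1.17.1, pandas 2.3.3, matplotlib 3.10.9 and numpy 2.4.6.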

Additional observations from a re-analysis of the deposited data

Results flagged for a closer look

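At chr17:14534344-14535044 the log2 ratio was 1.16 in DNCHD4 and -1.17 in DNBrg1 cells, so the density moved at least 2-fold in opposite directions in the 2 lines. After centring, the DNBrg1 value was -0.53. At chr17:14867509-14868191 it was 1.11 in DNSnf2h, a bound from a density of 17.3 without tetracycline and no hotspot with it, and -1.01 in DNBrg1, from 14.5 without and 29.3 with tetracycline. Within 50 kb of it the DNSnf2h list with tetracycline held densities down to 10.46, against which the site was under 2-fold higher. The number of hotspots in the 3 windows, without minus with tetracycline, was 5 in DNCHD4 and -24 in parental cells. None of these differences between lines was tested, since each group is 1 library.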

How the results depend on the processing

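Of 142 values computed under alternative settings, 31 left the limits set for them, which were 1.5 times for a count and the 95% counting interval for a median (that of 1 site of median density) or a ratio. These intervals are wide, and values inside them still shifted. The DNCHD4 ratio of hotspot numbers, 1.03, was 0.995 at a common threshold and 0.984 without the chromosome 14 window, and the DNSnf2h ratio of 1 was 0.935 without the chromosome 17 window, so neither has a firm direction. The parental median log2 ratio of -0.59 was -0.18 centred, and without the chromosome 17 window that of DNCHD4 (-0.24) was -0.11 and that of DNSnf2h (-0.35) was -0.12. The share of other windows with a lower DNCHD4 median than the chromosome 2 window was 0% at equal number and 25% within 10% of it. The lower sites of DNCHD4 numbered 30 when only sites in both lists were used, 38 with the lowest density within 50 kb as the bound and 43 without the chromosome 17 window. Its higher sites numbered 55 with mean density as the site value, 42 at 1.5-fold, 7 for sites in both lists and 7 without the chromosome 14 window. For DNBrg1 the lower sites numbered 40 at a common density threshold, 27 centred, 36 in both lists and 41 without the chromosome 17 window, the higher sites 9 with mean density, the median log2 ratio was -0.42 centred and the ratio of hotspot numbers 0.337 at a common threshold. For DNSnf2h the lower sites numbered 31 with mean density, 29 at 1.5-fold, 5 in both lists and 1 without the chromosome 17 window, and the higher sites 26, 11 and 0 under the first 3 of these, 0 with the local bound, and 1 without the chromosome 17 or the chromosome 14 window. For parental cells the lower sites numbered 6 centred, 51 with mean density, 80 at 1.5-fold and 14 without the chromosome 17 window, and the higher sites 1, 3 and 1 under the first 3. The cause of the shifts was not tested. No paired analysis was possible because within a line each state is 1 library. The ratios are themselves within-line pairs, and a fit across the 4 lines would treat different proteins as replicates. The unknown scaling of each library limits comparisons between lines, and a site absent from a list may lie just under that list's lowest density.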
